A study of Mus musculus with 10 samples.

Results

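The clustered histone genes, which lie in the mouse Hist1 to Hist4 loci, were represented by 54 of the 28192 probe sets measured on Affymetrix mouse Gene 1.0 ST arrays. The members were the probe sets annotated to any gene with a symbol of the form Hist1h to Hist4h. The platform annotation now lists these genes under newer symbols (*H2bc21* for *Hist2h2be*), so they were found through their Entrez gene IDs and the synonyms in RefSeq (GRCm38.p6). RefSeq holds 70 such genes, of which 69 were on at least 1 probe set and 31 were alone on a probe set. By histone class the members were 5 H1, 6 H2a, 17 H2b, 12 H3 and 12 H4 probe sets, and 2 probe sets spanned different classes. Of the 54 members, 31 carried 1 symbol and 23 carried several. Readings of the latter cannot be assigned to a single gene, and 9 H3 probe sets listed the same 12 symbols.

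The arrays compared sacral neural crest progenitors (NCPs) with total embryo. The 3 NCP samples were *Sox10*-H2BVenus+ cells, sorted at E13 from the dissociated lower urogenital tract of mice carrying the transgene C3Fe.Tg(Sox10-HIST2H2BE/Venus)ASout, in which *Sox10* regulatory DNA drives a histone H2B fused to the fluorescent protein Venus. The labels give neither the stage nor the genotype of the 7 total embryo arrays. Those arrays carried 2 RNA identifiers, 3 arrays with one that begins 2090 and 4 with one that begins 836, so that repeat arrays of the same identifier may measure spread that is technical only. On 1 of these 4 (replicate 6) the identifier is spelled without a zero that the others have, and whether it is the same RNA is not stated. The spellings were read as 1 identifier, and results that rest on this are also given with them kept apart. All 3 NCP arrays shared the last part of their titles with total embryo replicate 1 and with no other control array.

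Chromatin wraps DNA around octamers of the core histones H2A, H2B, H3 and H4, and the linker histone H1 binds the DNA between them. Most genes in these clusters are transcribed in S phase, and their mRNAs end in a stem-loop bound by SLBP in place of a poly(A) tail. Replacement variants outside the clusters, such as H3.3 and H2A.Z, are made throughout the cell cycle from polyadenylated mRNAs. Cells that stop dividing shut off the clustered genes and keep the replacement variants.

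Many H2a and H2b genes of the Hist1 cluster lie head to head and share the DNA between their starts. Among the histone genes with a promoter window in RefSeq (62 genes, each window 300 bases), 10 such pairs were found, of which *H2ac8* with *H2bc8* and *H2ac1* with *H2bc1* had both genes alone on a probe set. The DNA between the starts of these pairs is shown because the genes it separates had different readings on the arrays. The 100 bases upstream of *H2bc18* and *H1f2* are shown as an H2b promoter with the octamer and an H1 promoter without it. Capitals mark the octamer ATTTGCAT, which Oct factors bind, the TATA box TATAAA and the CCAAT box, each searched on both strands (ATGCAAAT, TTTATA and ATTGG where the match is on the minus strand). The coordinates are chr13:23571221-23571399, chr13:23934157-23934436, chr3:96269600-96269699 and chr13:23738707-23738806 (GRCm38.p6, plus strand, 5′ to 3′).
H2ac8 and H2bc8: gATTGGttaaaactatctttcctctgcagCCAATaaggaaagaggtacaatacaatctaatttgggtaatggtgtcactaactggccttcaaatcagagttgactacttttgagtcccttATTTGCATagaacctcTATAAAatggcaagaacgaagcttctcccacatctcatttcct
H2bc1 and H2ac1: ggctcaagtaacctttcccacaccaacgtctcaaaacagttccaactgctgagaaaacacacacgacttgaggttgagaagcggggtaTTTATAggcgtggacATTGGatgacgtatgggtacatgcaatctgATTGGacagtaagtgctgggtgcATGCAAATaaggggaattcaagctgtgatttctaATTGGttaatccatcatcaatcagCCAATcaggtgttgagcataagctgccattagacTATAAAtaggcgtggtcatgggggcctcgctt
H2bc18: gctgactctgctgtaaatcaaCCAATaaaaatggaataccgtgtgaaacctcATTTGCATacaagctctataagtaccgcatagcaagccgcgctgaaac
H1f2: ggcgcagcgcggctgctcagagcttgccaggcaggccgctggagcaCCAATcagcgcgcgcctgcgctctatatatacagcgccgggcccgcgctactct

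The octamer was found in 7 of 18 H2a windows (38.9%) and in 7 of 17 H2b windows (41.2%), against 1.74% of all 32851 promoter windows. It was in none of the 6 H1, 10 H3 and 12 H4 windows. The CCAAT box was in every H1, H2a, H2b and H3 window and in 3 of the 12 H4 windows, against 37.4% of all windows. TATAAA was in 40% to 66.7% of the windows of each class, against 13.6% overall. The windows of head-to-head pairs overlap, so 1 site can count for both genes. This was so for the octamer of *H2ac8* with *H2bc8*, *H2ac12* with *H2bc12* and *H2ac1* with *H2bc1*. A match only states that these letters are present in the window.

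Histone probe sets divided between higher and lower readings in NCPs. In the RMA values as deposited, 14 of the 54 members were higher in NCPs than in total embryo (25.9%, where 39.6% of all probe sets were higher) and 17 were lower (31.5%, against 27.5% of all probe sets), by limma at an adjusted p of 0.05. The remaining 23 members did not pass. All 3 NCP arrays lay above every total embryo array for 12 members (22.2%, against 31.8% of all probe sets) and below for 12 members (22.2%, against 21.5%). The median difference was -0.33 log2 over the members and 0.23 over all probe sets tested. With the arrays averaged per RNA identifier, 8 members were higher (20.4% of all probe sets) and 12 were lower (14.8% of all), or 13 (30.2% of all) and 14 (21.1% of all) with the spellings kept apart. The split changed with the scaling. Centring the arrays on the receptor genes described below gave 1 higher (4.75% of all probe sets) and 44 lower (77.9%), with a median over all probe sets of -1.47. Quantile normalization gave 15 higher (22.6%) and 9 lower (20%), and cyclic loess gave 12 higher (16.9%) and 3 lower (16%).

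**Figure D1:**
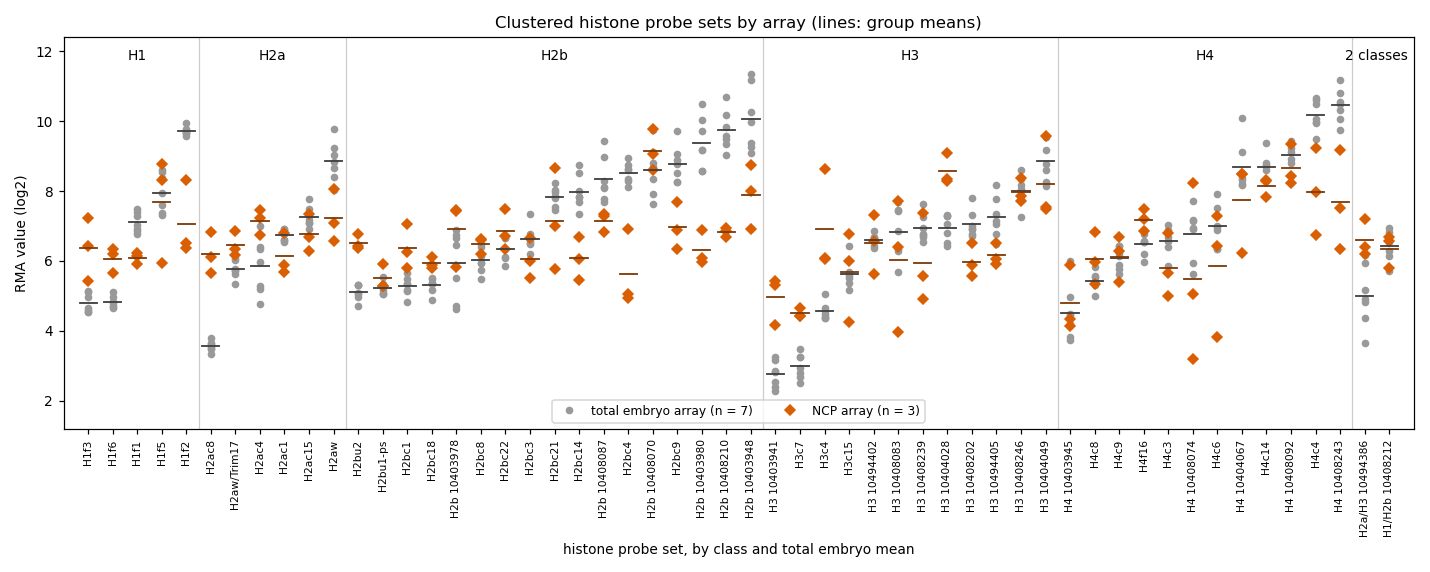
RMA values (log2, y axis) of the 54 clustered histone probe sets (x axis, by class and total embryo mean) in the 3 NCP arrays (diamonds) and the 7 total embryo arrays (circles), with lines at the group means. Within each class the NCP arrays tend to lie above total embryo on the left and below it on the right, and they are more scattered.

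The direction followed the level in total embryo. The 5639 probe sets with the highest total embryo means included 19 members, of which 0 were higher and 12 were lower, where 1.42% and 85.5% of the 5639 were. Of the other 35 members, 14 were higher and 5 were lower, where 49.1% and 13% of all the other probe sets were. All probe sets showed the same slope, and over 10 bins of total embryo level the median difference ran from 2.08 in the dimmest to -2.16 in the brightest. The values on the NCP arrays covered a narrower range, with an SD over all probe sets of 0.97 to 1.13 against 1.78 to 1.91 in total embryo.

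Each member was therefore set against the 500 probe sets nearest to it in total embryo mean. The members lay a median of 0.23 above those neighbours, and 29 of the 54 lay above. By class the median distance was 0.20 for H1, 0.45 for H2a, 0.28 for H2b, -0.19 for H3 and -0.070 for H4. These distances are descriptions and carry no test.

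**Figure D2:**
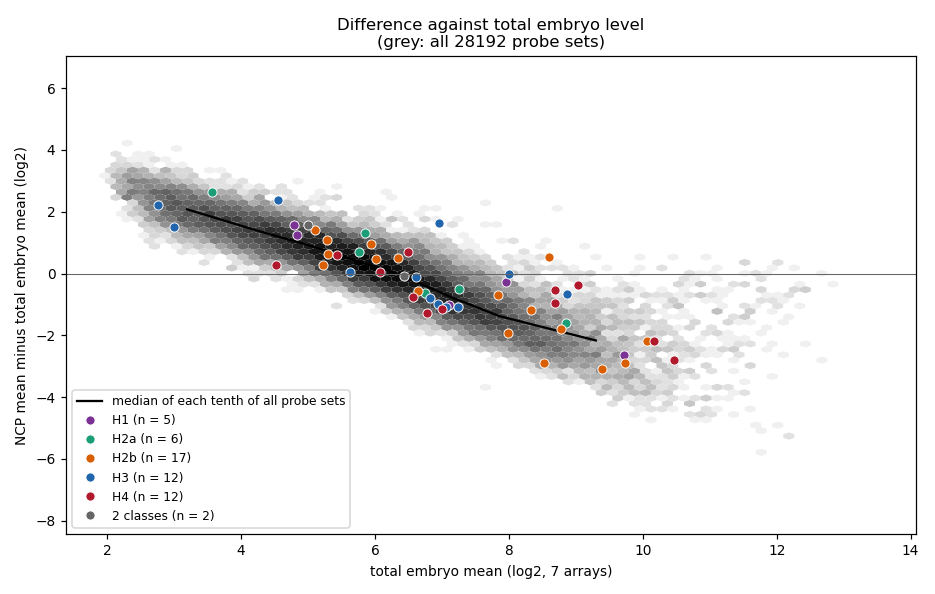
NCP mean minus total embryo mean (log2, y axis) against the total embryo mean (log2, x axis) for all 28192 probe sets (grey, darker where denser) with the median in each of 10 bins (line), and for the histone probe sets by class (coloured points). Most histone points follow the slope of the line, and a few H2b, H3 and H4 points lie well above it.

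NCP arrays were dim for most of the members, as they were for most probe sets. Olfactory and vomeronasal receptor genes (1204 probe sets), which are largely silent outside sensory epithelia, served as a floor. The mean of 39 of the 54 members lay below the 95th percentile of these receptors in NCPs (72.2%, against 88.8% of all probe sets), and that of 13 members in total embryo (24.1%, against 35.3%). Of the 14 members called higher, 10 were below it in both groups, and of the 17 called lower, 10 were below it in NCPs. Over the members, Pearson's r was 0.42 to 0.47 between NCP arrays, 0.93 to 0.98 between total embryo arrays and 0.39 to 0.61 between the groups (54 probe sets that share arrays and partly share symbols). NCP replicate 2 stood apart in the housekeeping genes, whose median exceeded that of the receptors by 0.62, against 3.27 and 4.31 in the other NCP arrays and 6.79 to 7.26 in total embryo. Of the NCP markers, *Sox10* was higher in NCPs by 1.0 (adjusted p = 0.000278), and in all 6 measured markers 3 were higher and 2 were lower. The measured housekeeping genes were all lower in NCPs (8 of 8, median -2.14), as were the markers of liver (3 of 3), striated muscle (3 of 3), smooth muscle (3 of 3), endothelium (2 of 2), immune cells (2 of 2) and epithelium (2 of 2). Those of erythroid (1 of 1, 1.73) and germ cells (2 of 2, median 1.64) were higher, and of 4 neuronal markers 1 was higher and 2 were lower. The erythroid marker *Hbb-bh1* had mean percentiles among the receptors of 65.3 in NCPs and 64.7 in total embryo. The germ cell markers had 24.8 and 27.5 (*Ddx4*) and 41.4 and 41.9 (*Dazl*). As deposited, 27.5% of all probe sets were lower, and 85.5% of the 5639 with the highest total embryo means. None of these erythroid and germ cell markers passed after level adjustment. Markers still lower then were 3 of 3 for liver, 3 of 3 for striated muscle, 2 of 2 for epithelium and 1 of 3 for smooth muscle. For endothelium and immune cells it was 0 of 2 each. Of the 8 housekeeping genes, 2 were then higher and 2 lower (10.3% and 8.29% of all probe sets). The part of these lists in the histone results was not tested. In such bulk samples, a change in the share of cells in S phase and a change in histone mRNA per cell cannot be told apart.

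Linker histone genes differed among themselves in the values as deposited. *H1f2* (*Hist1h1c*), a somatic linker histone, read 8.30, 6.52 and 6.37 in NCP replicates 1 to 3 and 9.57, 9.67 and 9.95 (lowest, median and highest) in total embryo. All 3 NCP arrays lay below the controls, with a difference of -2.65 ± 0.33 (SE) log2 (adjusted p = 1.52e-05). *H1f1* (*Hist1h1a*) was lower by a smaller amount, with a difference of -1.01 (adjusted p = 0.000504) and NCP arrays at 6.24, 5.91 and 6.13 against 6.77 to 7.47. *H1f3* (*Hist1h1d*) read 5.42, 6.43 and 7.23 in NCPs and 4.55, 4.65 and 5.13 in total embryo, a difference of 1.57 (adjusted p = 0.00062). Its mean percentile among the receptors was 77.1 in NCPs and 83.4 in total embryo. The testis linker histone *H1f6* (*Hist1h1t*) was also above all controls, with a difference of 1.23 (adjusted p = 6.34e-05). Its 3 NCP readings, 5.66 to 6.33, were all below the 95th percentile of the receptors. *H1f5* (*Hist1h1b*), a linker histone of dividing cells, read 8.76, 5.95 and 8.31 in NCPs and 7.30 to 8.59 in total embryo, and the groups overlapped. Its difference of -0.28 did not pass and was 0.58 without NCP replicate 2. The neighbours in total embryo level had medians of -2.54 for *H1f2*, -0.74 for *H1f1*, 1.04 for *H1f3*, 1.03 for *H1f6* and -1.43 for *H1f5*. After level adjustment, 0 of the 5 H1 probe sets were higher and 0 were lower (10.3% and 8.29% of all probe sets), a set too small to differ visibly from those shares.

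Of the 6 H2a probe sets, 4 were below the 95th percentile of the receptors in NCPs (39 of all 54 members). In total embryo 1 was (13 of all 54). *H2ac8* (*Hist1h2ae*) read 6.11, 5.65 and 6.82 in NCPs against 3.33, 3.56 and 3.78 in total embryo. Its difference of 2.63 ± 0.22 (SE) was the highest of the 54 members (adjusted p = 5.93e-07), yet the 500 probe sets of like total embryo level had a median of 1.84. Both group means of *H2ac8* were below the 95th percentile of the receptors. Its partner across the shared promoter DNA, *H2bc8* (*Hist1h2bg*), read 6.20, 6.60 and 6.63 against 5.48, 5.94 and 6.49, and its difference of 0.46 did not pass (95% confidence interval -0.023 to 0.95), although it passed without total embryo replicate 4 (0.54). The pair that is used in testis was opposed, with *H2bc1* (*Hist1h2ba*) higher by 1.1 (adjusted p = 0.0019) and *H2ac1* (*Hist1h2aa*) lower, with a difference of -0.62 (adjusted p = 0.0259). The *H2ac1* difference did not pass without NCP replicate 1 (-0.40) or 2 (-0.50). The neighbours in total embryo level of these genes had medians of 0.68 and -0.38. The mean percentile of *H2bc1* among the receptors was 83.7 in NCPs and 92.7 in total embryo. *H2aw* (*Hist3h2a*) read 7.09, 6.56 and 8.07 in NCPs against 8.03, 8.82 and 9.77, a difference of -1.60 (adjusted p = 0.00184). A second probe set that lists *H2aw* together with *Trim17* was higher, with a difference of 0.69 (adjusted p = 0.00881). The neighbours in total embryo level of these 2 probe sets had medians of -2.10 and 0.40. After level adjustment their differences were 0.42 and 0.29, and neither passed.

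H2b probe sets held the largest measured decreases as deposited. After level adjustment 2 of the 17 were higher and 0 were lower (10.3% and 8.29% of all probe sets). *H2bc4* (*Hist1h2bc*) read 6.90, 4.93 and 5.06 in NCPs and 8.12, 8.59 and 8.96 in total embryo. The NCP arrays were all below the controls, with a difference of -2.89 ± 0.36 (SE, adjusted p = 1.47e-05). In NCP replicates 2 and 3 *H2bc4* lay at the 17.7th and 30.6th percentiles of the receptors, so its decrease ended among readings of silent genes. Of the 6 H2b probe sets that list 14 or 15 symbols, the 3 with the lowest differences fell by 3.08 (10403980), 2.90 (10408210) and 2.19 (10403948) log2 (adjusted p = 2.08e-05, 3.08e-06 and 0.0024). The neighbours of these 3 in total embryo level had medians of -2.37, -2.54 and -2.52, and those of *H2bc4* had a median of -1.94. Probe sets on the same 14 symbols did not move alike, since their differences ran from -2.90 to 0.55. *H2bu2* (*Hist3h2ba*) and *H2bc18* (*Hist2h2bb*), in contrast, were higher as deposited by 1.42 (adjusted p = 1.82e-05) and 0.62 (adjusted p = 0.0059). The neighbours of *H2bu2* and *H2bc18* in total embryo level had medians of 0.85 and 0.67, so *H2bc18* did not exceed its neighbours. Both group means of *H2bu2* were below the 95th percentile of the receptors. *H2bc18* read 5.80, 6.10 and 5.88 in NCPs against 4.90, 5.36 and 5.50, below the 95th percentile of the receptors in the mean of either group, and its difference was -1.07 with the arrays centred on the receptors.

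*H2bc21* (*Hist2h2be*) is the mouse counterpart of the histone in the reporter, which the sorted cells carry. It read 5.76, 6.99 and 8.66 in NCPs and 7.46, 7.87 and 8.23 in total embryo. The NCP arrays spanned both sides of the controls, and the difference of -0.70 did not pass (95% confidence interval -1.65 to 0.25). Without NCP replicate 3 it was -1.46 and passed. The members whose pattern over the 10 arrays was most like it were *H2ac1* (Pearson's r = 0.81), the H3 probe set 10404049 (0.69), *H4c3* (0.69), *H2bc9* (0.60) and the H2b probe set 10403948 (0.58), over arrays that share a group difference. After level adjustment they were *H1f6* (0.82), *H1f3* (0.79), *H4c8* (0.70), the H3 probe set 10404049 (0.68) and *H2ac8* (0.58), so only 10404049 was in both sets. Whether its probes read the human sequence of the transgene was not tested.

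As deposited, single H3 and H4 probe sets differed from others of their class. The 9 H3 probe sets that share 12 symbols (*H3c1*, *H3c2*, *H3c3*, *H3c4*, *H3c6*, *H3c7*, *H3c8*, *H3c10*, *H3c11*, *H3c13*, *H3c14* and *H3c15*) had differences from -1.09 to 2.20. Of these, 2 were higher and 3 were lower (39.6% and 27.5% of all probe sets). Probe set 10404028 read 9.09, 8.30 and 8.34 in NCPs and 6.42, 7.06 and 7.31 in total embryo. It was above the controls in every NCP array, by 1.63 ± 0.26 (SE, adjusted p = 0.000109), where its neighbours in level had a median of -0.60. Probe set 10408202, with the same symbols, was lower (-1.09, adjusted p = 0.00257), and probe set 10403941 was higher by 2.20 at the dim end of the array (adjusted p = 2.61e-05). The neighbours of 10408202 and 10403941 in level had medians of -0.70 and 2.35, and neither probe set passed after level adjustment. *H3c4* (*Hist1h3d*) was higher by 2.37 (adjusted p = 0.000416), at 8.62, 6.10 and 6.05 in NCPs against 4.37 to 5.06, so NCP replicate 1 lay far above the other NCP arrays. The neighbours of *H3c4* in level had a median of 1.18. Its mean percentile among the receptors was 83.6 in NCPs and 77.2 in total embryo. Probe set 10404049, the brightest H3 member in total embryo, read 7.55, 7.49 and 9.57 in NCPs against 8.15, 8.78 and 9.56, and its difference of -0.66 did not pass (-1.34 without NCP replicate 3, which did).

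In H4, *H4c4* (*Hist1h4d*) read 9.22, 6.74 and 7.98 in NCPs and 9.50, 10.05 and 10.66 in total embryo, a difference of -2.19 (adjusted p = 0.000486). Probe set 10408243, which lists 11 H4 genes, was lower by a similar amount (-2.79, adjusted p = 0.000182). The neighbours of *H4c4* and 10408243 in level had medians of -2.49 and -2.43, and neither probe set passed after level adjustment. *H4f16* (*Hist4h4*), which lies outside the large clusters, was the only H4 member that was higher, with a difference of 0.68 (adjusted p = 0.014). Its neighbours in level had a median of -0.15. *H4f16* read 7.48, 6.85 and 7.20 in NCPs and 5.96, 6.55 and 6.87 in total embryo, so NCP replicate 2 overlapped with the controls. The difference did not pass without NCP replicate 1 (0.53). With the arrays averaged per RNA identifier, *H1f3*, *H2ac1*, the *H2aw* and *Trim17* probe set, *H2bc1*, *H2bc18*, the H3 probe set 10408202, *H3c4* and *H4f16* did not pass. With the spellings kept apart, only *H2ac1* and the *H2aw* and *Trim17* probe set of these did not.

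To remove the slope shared by all probe sets, the trend of each array against the total embryo mean was subtracted (level adjustment). Then 9 of the 54 members were higher in NCPs (16.7%, against 10.3% of all probe sets) and 1 was lower (1.85%, against 8.29%). The median over the members became 0.18, and by class it was 0.22 for H1, 0.38 for H2a, 0.19 for H2b, -0.24 for H3 and -0.073 for H4. Of the 19 brightest members, 5 were higher, where 17.1% of the 5639 brightest probe sets were. Without NCP replicate 1, 2 or 3 the higher members numbered 9, 11 and 8 (12.5%, 13.7% and 12.7% of all probe sets), and the lower 4, 3 and 4 (10.6%, 12.3% and 10.7% of all). With the arrays averaged per RNA identifier, no member passed in the level-adjusted values (0.114% of all probe sets higher and 0.00355% lower). In that fit 8 members higher and 1 lower had an unadjusted p under 0.05, as did 10.3% of all probe sets in either direction. With the spellings of the identifier kept apart, 5 members were higher (1.72% of all probe sets) and 0 were lower (0.504%). At an unadjusted p under 0.05 these were 9 and 1, against 18.2% of all probe sets in either direction.

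**Figure D3:**
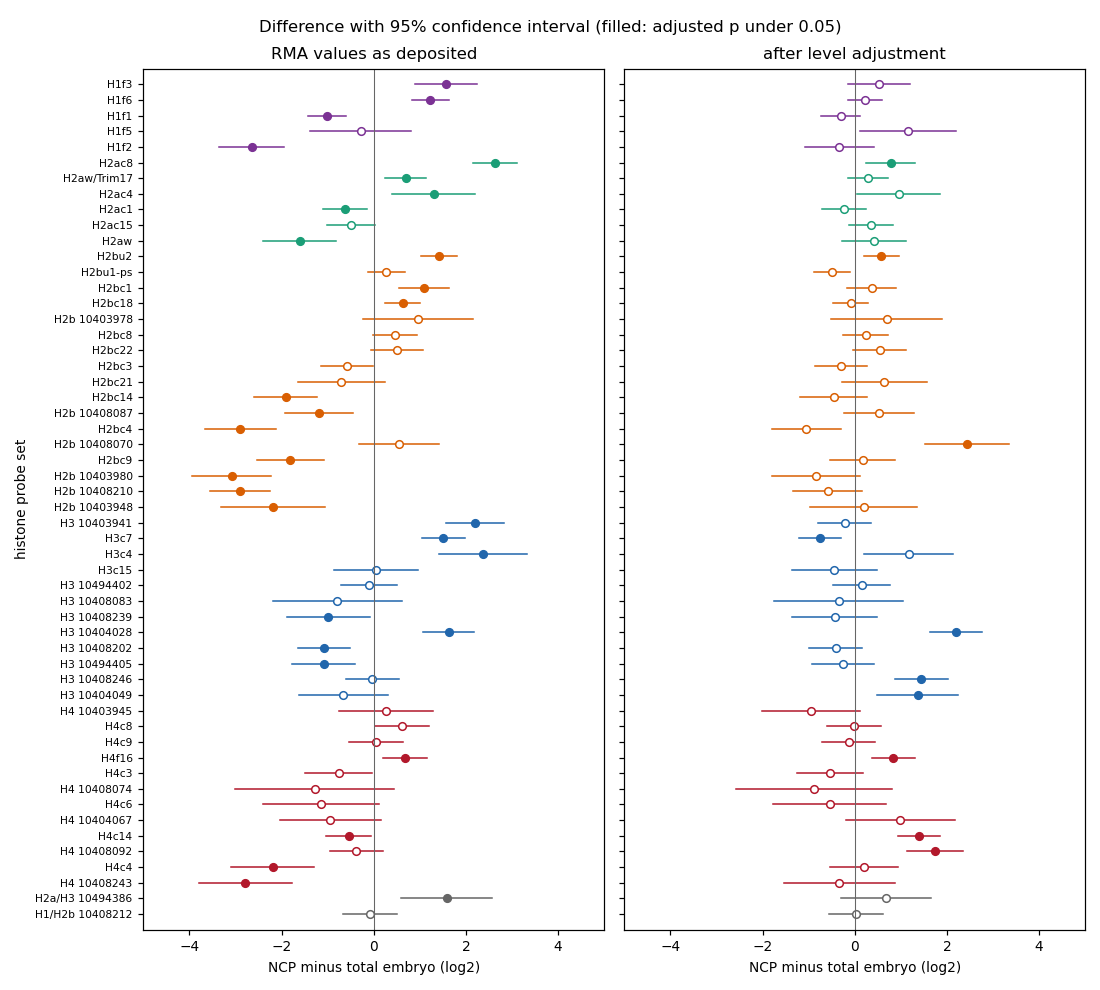
NCP minus total embryo (log2, x axis) with its 95% confidence interval for each histone probe set (y axis, coloured by class), as deposited (left) and after level adjustment (right). Filled points have an adjusted p under 0.05, of which 31 are on the left and 10 on the right.

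The following probe sets were chosen after their values were seen. The 5 increases that passed in the level-adjusted values without each NCP array in turn were 4 probe sets with several symbols and *H4c14* (*Hist2h4*). They were also the 5 that passed with arrays averaged per identifier as spelled. The H2b probe set 10408070 read 8.61, 9.78 and 9.07 in NCPs and 7.63, 8.68 and 9.74 in total embryo. The groups overlapped, and only the level-adjusted difference passed (2.44 ± 0.42 SE, adjusted p = 0.00201), with 0.55 before adjustment. The H3 probe set 10404028 had a level-adjusted difference of 2.19 ± 0.26 (SE, adjusted p = 0.000177), and its values as deposited are given above. The H4 probe set 10408092 (1.73, adjusted p = 0.00127) and the H3 probe set 10408246 (1.45, adjusted p = 0.00257) overlapped with the controls as deposited. *H4c14* read 8.30, 7.84 and 8.29 in NCPs against 8.29, 8.72 and 9.36, and was lower as deposited (-0.55, adjusted p = 0.0484) but higher after adjustment (1.39, adjusted p = 0.000916). The decrease did not pass without any 1 of the NCP arrays or of 5 of the 7 total embryo arrays (-0.63 to -0.39). The other level-adjusted increases lost the call without an NCP array: *H4f16* without replicate 1 (0.70), *H2ac8* without replicate 1 (0.80) or 3 (0.42), and *H2bu2* (0.43) and the H3 probe set 10404049 (0.82) without replicate 3. The single decrease, *H3c7* (*Hist1h3f*, -0.75, against a difference of 1.51 as deposited), lost it without replicate 2 (-0.62).

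The histone probe sets also moved between total embryo arrays read as 1 RNA identifier. The pooled SD over such repeat arrays had a median of 0.36 log2 for the members and 0.20 for all probe sets, and 47 of the 54 members were above the median of all probe sets in their bin of total embryo level. With replicate 6 left out for its spelling, these were 0.38 for the members and 0.20 for all probe sets, and 45 members were above. The pooled SD was 0.48 for members with several symbols and 0.31 for members with 1 symbol. By class it was 0.21 for H2a, 0.29 for H1, 0.35 for H2b, 0.38 for H3 and 0.39 for H4. *H1f6* varied least (0.11), and the H2b probe set 10403948 varied most (0.97).

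The shifts within an array mostly had 1 sign in the different classes. In total embryo replicate 4, 44 of the 54 members were above the mean of the 4 arrays with its identifier, by a median of 0.40 and with class medians from 0.17 (H1) to 0.47 (H3). Against the 3 arrays spelled alike, the median was 0.33, again with 44 members above. In replicates 3 and 6 the median deviations were -0.30 and -0.18, and in replicate 7 it was -0.29 within its group of 3. All classes were below in replicate 7, from -0.33 (H2b) to -0.13 (H1), but in replicate 3 H1 was at 0.024 where the others ran from -0.57 (H4) to -0.23 (H3). The corresponding medians over all probe sets lay between -0.024 and 0.016. Between the identifiers, limma called 0 of the 54 members and 0 of all probe sets, and 1 member higher and 7 lower in 2090 had an unadjusted p under 0.05 (12.2% of all probe sets in either direction).

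**Figure D4:**
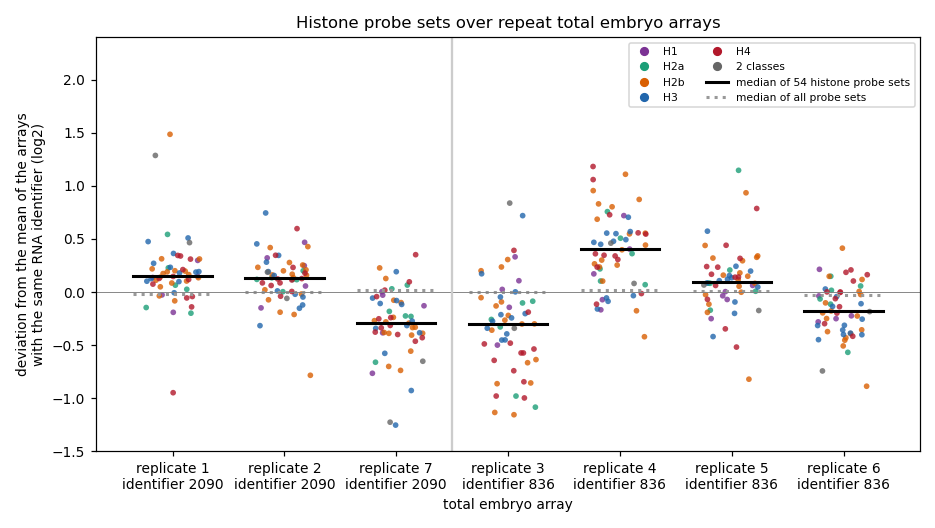
Deviation of each histone probe set (points, coloured by class) from its mean over the total embryo arrays with the same RNA identifier (log2, y axis), by array (x axis, replicate 6 counted with replicates 3 to 5), with the median of the histone probe sets (solid line) and of all probe sets (dotted line). The histone median lies at 0.40 in replicate 4 and near -0.30 in replicates 3 and 7, and the dotted lines stay near 0.

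Genes that act with the clustered histones were read from 4 lists, beside 39.6% higher and 27.5% lower over all probe sets and a median of 0.23. Of the 11 measured replication-independent histone genes, 2 were higher and 4 were lower, with a median of -0.29. The oocyte linker histone *H1f8* was higher by 1.34 (adjusted p = 3.68e-05) and the H2A variant *H2aj* was lower (-1.59, adjusted p = 3.43e-06). Of 15 genes for histone mRNA synthesis and processing, 2 were higher and 6 were lower (median -0.41). *Zfp473*, a partner of the U7 snRNP, was higher by 1.46 (adjusted p = 0.000164) and *Cpsf2*, of the cleavage complex, was lower (-2.61, adjusted p = 3.91e-06). *Slbp*, named after its values were seen because its product binds the histone stem-loop, read 9.39, 7.30 and 9.45 in NCPs and 7.30, 7.60 and 8.08 in total embryo. It was higher as deposited (1.09, adjusted p = 0.023) and after level adjustment (2.25, adjusted p = 0.00128), although NCP replicate 2 lay at the lower end of the controls. As deposited it did not pass without NCP replicate 1 (0.75) or 3 (0.72), or with the arrays averaged per RNA identifier in either spelling.

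Of 14 histone chaperone genes, 1 was higher and 7 were lower (median -0.60). *Set* was higher by 1.77 (adjusted p = 2.69e-05), and *Supt16*, a subunit of the FACT complex, was lower (-2.96, adjusted p = 8.62e-07). Of 26 S phase genes, 1 was higher and 9 were lower (median -0.36), and *Pola1*, the catalytic subunit of DNA polymerase alpha, had a difference of -2.12 (adjusted p = 3.4e-05). After level adjustment 3, 3, 3 and 5 genes of the lists, in the order given, were higher and 0, 0, 1 and 0 were lower (10.3% and 8.29% of all probe sets), with medians of 0.067, 0.0096, 0.22 and 0.19. The 54 clustered histone probe sets had 0.18 on the same scale. Of the named genes, *H1f8* (0.87), *Set* (0.76) and *Supt16* (-0.66) also passed after level adjustment. *H2aj* (0.067), *Zfp473* (0.33), *Cpsf2* (-0.63) and *Pola1* (-0.82) did not. Mean percentiles among the receptors, in NCPs and total embryo, were 89.6 and 85.4 for *Set* and 76.3 and 80.1 for *Zfp473*.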

How the data were processed

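The values the authors deposited are on the log2 scale and came from Affymetrix Expression Console 1.1 with RMA (robust Multi-Array Average) normalization, per the labels. Which arrays were normalized together is not given in the sources used here. The labels name a GeneChip One-Cycle labelling kit and the study's methods a whole-transcript amplification kit. Values were used as deposited for 3 NCP and 7 total embryo arrays, grouped by the labels. Replicate numbers follow deposit order and pair no samples. After removal of 6568 control probe sets, limma 3.58.1 in R 4.3.3 was fitted to 28192 (linear model, moderated test, prior of 4.65 degrees of freedom) with Benjamini-Hochberg adjustment over all of them and a threshold of 0.05. The fits were tested on simulated data. For level adjustment, the difference between an array and the total embryo mean was smoothed on that mean by lowess with a span of 0.3, and the smooth was taken off the array. The members and lists were chosen with earlier results of these data known. Named members are, in each class, up to 3 with the largest increases and 3 with the largest decreases among those whose NCP arrays all lay beyond the total embryo arrays. Also named are the member of each class highest in total embryo, the testis genes, the counterpart of the reporter and *H4f16*. *H1f5* and *H2bc8* were added after their values were seen. In each list the largest increase and decrease with NCP arrays all beyond the total embryo arrays are named. The S phase list had no such increase, since the 1 gene called higher overlapped with the controls. Of the lists, 11 of 14, 15 of 16, 14 of 16 and 26 of 27 genes had a probe set of their own. Alternatives changed control arrays, scaling, filters, weights, test and block, averaged arrays per RNA identifier (also with its spellings kept apart, chosen after seeing the data), and left out each array. Promoter windows came from RefSeq (GRCm38.p6), and 26 of the 31 members with 1 symbol had one. The number of arrays limits the precision. Figures were drawn with Python 3.11.15.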

Additional observations from a re-analysis of the deposited data

Results flagged for a closer look

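*H3c15* (*Hist2h3c2*) in total embryo replicate 3 read 6.43, apart from the other 6 total embryo arrays, the nearest of which read 5.68. *H3c4* (*Hist1h3d*) in total embryo replicate 1 read 5.06, with the nearest other array at 4.65. Of 54 members tested over the 7 total embryo arrays, 2 had an array this far from the rest, and chance gives such an array in about 1 of 20 groups.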

How the results depend on the processing

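No paired analysis was possible because the replicate numbers were given in deposit order and pair no samples. NCP replicate 2 was close to the floor in its housekeeping genes, and 3 NCP arrays against 2 total embryo RNA identifiers limit the precision of every value; 39 of 54 members were below the 95th percentile of the receptors in NCPs (88.8% of all probe sets). The cause of the changes below was not tested. As deposited, 14 members were higher and 17 lower. Averaging arrays per RNA identifier gave 8 higher (20.4% of all probe sets). The identifier as a random block gave 9 higher and 10 lower, and array weights gave 9 higher and 10 lower. The share of all probe sets called was not counted for the random block, array weights, centring on array medians or fits as deposited without single arrays. Member counts from those settings therefore cannot be set against all probe sets. Total embryo replicate 1 as the only control gave 0 higher and 2 lower, with 4 and 9 at an unadjusted p under 0.05 (3.74% of all probe sets passed and 25.8% had such a p), the lone control being assumed to vary like the NCPs. Quantile normalization gave 15 higher and 9 lower, with H2a at 0.39 and reversed the H3 probe set 10404049 (0.57), *H1f5* (0.50), *H3c7* (-0.13) and *H4c14* (0.87).

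Centring the arrays on their own medians, with a median of all probe sets of 0.11, gave 14 higher and 20 lower. Centring on the receptors shifted the median of all probe sets to -1.47 (0.23 as deposited) and gave 1 higher and 44 lower. The median of all members was then -2.02, with H1 at -1.97, H2a at -1.59, H2b at -2.27, H3 at -1.76 and H4 at -2.34. It reversed *H1f3* (-0.12), *H1f6* (-0.46), the *H2aw* and *Trim17* probe set (-1.0), *H2bu2* (-0.27), *H2bc1* (-0.60), *H2bc18* (-1.07), the H3 probe set 10404028 (-0.066), *H4f16* (-1.01), *H2bc8* (-1.23), the H2b probe set 10408070 (-1.14), *H3c7* (-0.18), *Sox10* (-0.69), *Slbp* (-0.60), *H1f8* (-0.35) and *Zfp473* (-0.23). Cyclic loess, with a median of all probe sets of -0.0089, gave 12 higher and 3 lower. It gave medians of 0.075 for all members, 0.41 for H2a, 0.11 for H2b and -0.14 for H4, and reversed *H2aw* (0.37), *H2bc18* (-0.077), the H3 probe sets 10403941 (-0.10) and 10404049 (1.41), *H2bc21* (0.77), *H1f5* (1.40), *H3c7* (-0.78), *H4c14* (1.49) and *H2aj* (0.010). Level adjustment, with a median of all probe sets of -0.013, gave 9 higher and 1 lower. It gave medians of 0.18 for all members, 0.38 for H2a, 0.19 for H2b and -0.073 for H4, and reversed *H2aw* (0.42), *H2bc18* (-0.088), the H2b probe set 10403948 (0.19), the H3 probe sets 10403941 (-0.22) and 10404049 (1.37), *H4c4* (0.21), *H2bc21* (0.64), *H1f5* (1.16), *H3c7* (-0.75), *H4c14* (1.39) and *H2aj* (0.067).

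Members with 1 symbol alone gave 9 lower of 31, where 27.5% of all probe sets were lower as deposited. Their medians were 0.048 for all, -0.49 for H2a, 0.28 for H2b and 1.51 for H3. Leaving out 1 array at a time gave 14 to 16 higher, 15 to 21 lower and medians of -0.43 to -0.13 for all members, -0.82 to 0.58 for H1, -0.014 to 0.22 for H2a, -0.88 to -0.012 for H2b, -0.18 to -0.028 for H3 and -0.74 to -0.20 for H4. The H1 median was 0.58 without NCP replicate 2, the H2b median was -0.012 without NCP replicate 1, and the H4 median was -0.20 without NCP replicate 2. In the level-adjusted values, alternatives chosen after seeing the data left out an NCP array, which gave 8 to 11 higher, 3 to 4 lower and a median of 0.11 (without replicate 3) to 0.32 (without replicate 1), or averaged arrays per RNA identifier, which gave 0 higher and 0 lower, or 5 higher and 0 lower with the spellings of the identifier kept apart. *H1f5* was reversed without NCP replicate 2 (0.58). The remaining alternatives reversed none of the genes and probe sets named with a difference as deposited.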
